A study of Mus musculus with 8 samples.

Results

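DC-SCRIPT, the zinc finger protein encoded by Zfp366, left 31473 CUT&Tag peaks in conventional type 1 dendritic cells (cDC1) of mouse spleen, and 1883 of them, or 5.98% (exact 95% interval 5.72% to 6.25%), stood in 269 dense clusters. A cluster is a run of at least 6 peaks in which each centre lies at most 0.0125 Mb from the next, so the members were chosen by where peaks fall in the cDC1 list. For the cDC1 comparison the series holds 2 knockout mouse pools (genotype zfp366-/-) and 3 wild-type pools (zfp366+/+). For a second comparison, in conventional type 2 dendritic cells (cDC2), it holds 2 knockout pools and 1 wild-type pool. Whether every library entered the authors' peak calls is not stated. All 8 libraries came from female C57BL/6 mice, each from a pool of animals, with cells sorted from spleen after collagenase and DNase digestion. Mice of the knockout genotype lack Zfp366 in every cell type as far as the labels say, and the labels do not say which part of the gene was removed. The ages of the mice are also not given.

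In CUT&Tag an antibody brings a transposase to a chromatin protein, so that DNA beside the protein is cut and sequenced. Conventional dendritic cells take up antigen and present it to T cells: cDC1 are known for cross-presentation to CD8 T cells, and cDC2 for priming CD4 T cells. DC-SCRIPT is a transcriptional regulator of these cells that is known as a corepressor of nuclear receptors. Runs of neighbouring binding sites of transcription factors are often found around genes that define a cell type, where several enhancers lie side by side. Binding here means only that the authors listed a peak, which required wild-type tags of at least 4 times the knockout tags at equal depth.

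The peaks were called by the authors on pooled tags, with 12.2 M knockout and 35.5 M wild-type tags in cDC1 and with 6.83 M knockout and 4.77 M wild-type tags in cDC2. Signal is given as normalised tags, the tags under a peak of 191 bp scaled to a library of 10000000. In cDC1, 3 knockout tags equal 2.47 normalised tags, and the lowest knockout value listed is 0.411. No value per mouse pool was used here, so no spread between animals stands behind any value below. Intervals are exact (Clopper-Pearson) 95% intervals over tags or peaks and cover counting error only. Repeated tags at 1 position were counted as separate tags, and peaks of 1 cluster share their libraries and are not replicates. The fold of a cluster is its summed wild-type tags over its summed knockout tags at equal depth. It belongs to the contrast that chose the members, so it is given as a description without a test. Coordinates are those of mouse build GRCm38.

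In 120 of the 269 clusters a peak lay over the promoter window of a gene, and a few of these promoters show where the peak lies against the gene. Each sequence below is the RefSeq window (GRCm38.p6) of 250 bases before to 50 bases after a gene start, printed 5′ to 3′ on the strand of the gene, with the bases under the cluster peak in capitals. The first 5 are the protein-coding genes of the largest clusters whose start base lay under a peak. The other 3 (Nlrp3, Tnf and Tlr9, genes of the inflammasome, of inflammatory cytokine output and of DNA sensing) were chosen after their values were seen. In those 3 windows the peak lay just ahead of the gene start.
Gm2a (chr11:55097735-55098034, plus strand): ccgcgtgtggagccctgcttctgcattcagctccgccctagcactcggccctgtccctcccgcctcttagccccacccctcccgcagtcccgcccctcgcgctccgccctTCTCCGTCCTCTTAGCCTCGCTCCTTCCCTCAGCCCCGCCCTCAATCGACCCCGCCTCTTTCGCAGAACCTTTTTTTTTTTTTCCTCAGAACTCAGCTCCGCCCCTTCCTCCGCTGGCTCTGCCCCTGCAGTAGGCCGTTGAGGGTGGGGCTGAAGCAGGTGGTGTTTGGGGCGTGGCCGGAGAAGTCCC
P2ry14 (chr3:59153443-59153742, minus strand): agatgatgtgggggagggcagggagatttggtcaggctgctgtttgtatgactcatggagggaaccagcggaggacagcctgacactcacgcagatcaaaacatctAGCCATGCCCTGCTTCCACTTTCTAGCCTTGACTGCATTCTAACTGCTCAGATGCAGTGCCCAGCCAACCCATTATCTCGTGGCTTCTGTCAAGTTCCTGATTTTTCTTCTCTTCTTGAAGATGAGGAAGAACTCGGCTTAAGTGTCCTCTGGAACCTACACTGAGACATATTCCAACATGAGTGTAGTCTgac
Nbeal2 (chr9:110654112-110654411, minus strand): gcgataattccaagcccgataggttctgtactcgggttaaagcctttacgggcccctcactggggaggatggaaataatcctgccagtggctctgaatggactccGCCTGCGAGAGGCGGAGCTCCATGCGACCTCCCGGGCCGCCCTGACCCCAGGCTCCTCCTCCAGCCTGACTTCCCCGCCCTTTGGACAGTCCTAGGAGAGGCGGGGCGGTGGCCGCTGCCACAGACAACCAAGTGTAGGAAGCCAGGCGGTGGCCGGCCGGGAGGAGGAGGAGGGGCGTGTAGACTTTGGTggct
Supt20 (chr3:54692565-54692864, plus strand): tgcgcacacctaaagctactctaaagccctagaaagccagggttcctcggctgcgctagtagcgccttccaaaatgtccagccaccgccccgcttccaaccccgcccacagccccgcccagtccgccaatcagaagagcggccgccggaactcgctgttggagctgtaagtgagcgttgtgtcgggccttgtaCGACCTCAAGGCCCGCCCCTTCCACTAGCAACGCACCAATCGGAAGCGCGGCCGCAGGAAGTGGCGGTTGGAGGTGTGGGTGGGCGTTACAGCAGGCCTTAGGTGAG
Lrrk2 (chr15:91672974-91673273, plus strand): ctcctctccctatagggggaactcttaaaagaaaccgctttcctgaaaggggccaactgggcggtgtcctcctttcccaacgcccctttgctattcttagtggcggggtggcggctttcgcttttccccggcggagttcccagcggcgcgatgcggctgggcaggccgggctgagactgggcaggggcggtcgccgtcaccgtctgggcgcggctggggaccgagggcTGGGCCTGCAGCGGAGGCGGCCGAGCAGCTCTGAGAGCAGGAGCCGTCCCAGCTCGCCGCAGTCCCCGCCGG
Nlrp3 (chr11:59542436-59542735, plus strand): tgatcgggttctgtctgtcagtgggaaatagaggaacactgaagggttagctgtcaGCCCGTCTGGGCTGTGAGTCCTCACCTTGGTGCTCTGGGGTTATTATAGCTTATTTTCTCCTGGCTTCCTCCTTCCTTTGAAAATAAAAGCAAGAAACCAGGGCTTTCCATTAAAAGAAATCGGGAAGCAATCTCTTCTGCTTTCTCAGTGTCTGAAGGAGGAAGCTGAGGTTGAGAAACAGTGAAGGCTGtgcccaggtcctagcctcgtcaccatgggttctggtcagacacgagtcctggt
Tnf (chr17:35201958-35202257, minus strand): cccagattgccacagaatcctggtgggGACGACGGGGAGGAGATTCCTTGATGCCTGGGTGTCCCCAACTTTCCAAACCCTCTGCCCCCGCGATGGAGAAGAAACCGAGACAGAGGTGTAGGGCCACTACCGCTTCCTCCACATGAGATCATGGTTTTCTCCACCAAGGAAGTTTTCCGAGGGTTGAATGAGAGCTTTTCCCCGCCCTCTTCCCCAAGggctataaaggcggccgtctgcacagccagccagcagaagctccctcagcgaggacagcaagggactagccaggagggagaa
Tlr9 (chr9:106222348-106222647, plus strand): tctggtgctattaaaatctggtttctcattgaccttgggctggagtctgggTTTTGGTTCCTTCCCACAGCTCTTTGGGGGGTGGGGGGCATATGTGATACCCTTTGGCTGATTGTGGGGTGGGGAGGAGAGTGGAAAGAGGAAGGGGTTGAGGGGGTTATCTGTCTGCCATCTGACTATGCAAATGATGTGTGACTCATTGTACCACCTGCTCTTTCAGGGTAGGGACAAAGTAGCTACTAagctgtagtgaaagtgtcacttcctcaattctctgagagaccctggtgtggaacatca

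The Gm2a and P2ry14 windows carried the strongest of the 5 start peaks: 4.52 knockout and 72.3 wild-type normalised tags at Gm2a, and 1.64 knockout and 68.1 wild-type normalised tags at P2ry14. At Nbeal2 the peak held 7.81 knockout and 45.4 wild-type tags, at Supt20 2.88 knockout and 24.7 wild-type tags, and at Lrrk2 0.822 knockout and 20.6 wild-type tags. The Nlrp3 peak was stronger than all of these, with 4.52 knockout and 103.8 wild-type tags, and it was the only peak of the 8 that overlapped a cDC2 peak. At Tnf and at Tlr9 the peaks held 4.52 knockout and 38.3 wild-type tags, and 4.11 knockout and 32.7 wild-type tags. GC content of the peak bases inside the printed window ran from 46.6% at P2ry14 and Nlrp3 to 76.4% at Lrrk2. Only 72 peak bases lay in the window at Lrrk2 and 107 at Supt20. The GC content of those peaks as a whole was therefore not measured.

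Short motifs were searched in these windows on both strands: AP-1 (TGANTCA), the composite of ETS and IRF factors (GGAA and GAAA with 2 bases of any kind between them), the interferon response element (GAAA and GAAA with 2 bases of any kind between them, which can share bases with the composite) and a PU.1 site (GAGGAAGT). Among the 8 windows, AP-1 stood in those of P2ry14 and Tlr9, under the peak only at Tlr9, and PU.1 stood at Tlr9 outside the peak. Of the 199 windows under a cluster peak, 8.54% held AP-1 (interval 5.06% to 13.3%), against 4.80% of the 5313 windows under any cDC1 peak and 7.81% of all 32851 windows. The composite stood in 4.02%, 3.27% and 2.72% of the same 3 sets. The PU.1 site stood in 6.03%, 5.14% and 3.20%, and the interferon response element in 3.52%, 3.65% and 3.44%. For AP-1 the interval of the cluster windows lies above the share under any cDC1 peak and holds the share of all windows. Some of the 199 windows share bases with one another, as those of Fam111a and of Mlh3 do, and a Pigp window held only 1 base of a peak. The intervals count such windows as separate and may be too narrow, so no difference is read from them. For the composite and the response element it holds both of the other shares, as it does for PU.1 (interval 3.15% to 10.3%). Promoter windows under any cDC1 peak are 16.2% of all windows.

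Most clusters were at the smallest size the rule allows: 148 had 6 peaks, 58 had 7, 26 had 8, and 37 had 9 or more, up to 16. They spanned 14.0 kb to 110.7 kb, with a median of 34.4 kb (quartiles 28.0 and 41.0 kb), and neighbouring peaks inside them lay a median of 6.19 kb apart. Their summed signal ran from 4.11 to 57.9 knockout normalised tags with a median of 15.2, and from 48.9 to 788.0 wild-type normalised tags with a median of 164.1. The summed fold over knockout had a median of 10.6 (quartiles 8.50 and 13.6), was lowest at H2-Eb2 and Btnl2 with 5.65 and highest at Samd12 with 30.7. With peaks at the lowest knockout value left out, the median was 9.73. Together the clusters held 7.42% of the normalised tags of all cDC1 peaks on 0.491% of the genome size that the authors set. The plot of summed signal against the number of peaks shows that both measures are only loosely tied: clusters of 6 peaks reached from the lowest sum to 412.3 tags.

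**Figure D1:**
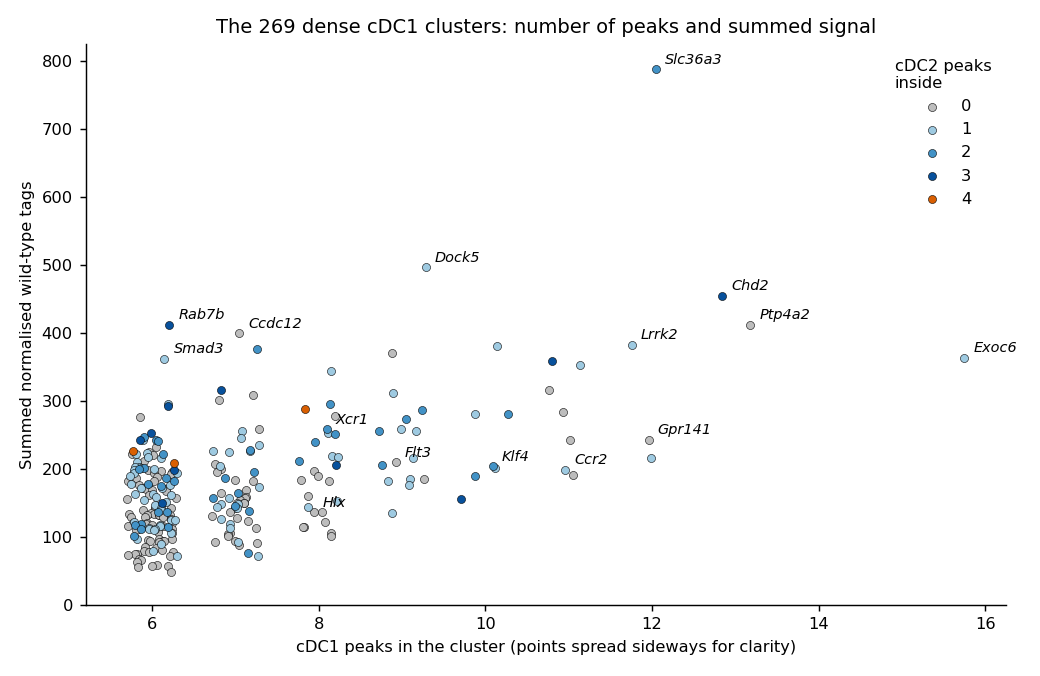
Each point is 1 of the 269 clusters, with the number of cDC1 peaks on the horizontal axis and the summed normalised wild-type tags on the vertical axis; colours give the number of cDC2 peaks inside. Slc36a3 stands highest at 788.0 tags with 12 peaks, while Exoc6, with 16 peaks, holds 363.4 tags.

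The strongest peak held a median of 26.4% of a cluster's wild-type tags (range 11.9% to 55.2%), and it exceeded 50% only at Ifitm3 and Gnat3. In 88 clusters, or 32.7% (interval 27.1% to 38.7%), the strongest peak was the first or the last of the run. Taken singly, cluster peaks held a median of 2.05 knockout and 20.9 wild-type normalised tags, and the 29590 peaks outside clusters a median of 1.64 knockout and 15.2 wild-type tags. In the authors' deposited table the fold, wild type over knockout, had a median of 10.9 in cluster peaks and of 10.1 outside. The knockout value was the lowest listed in 15.8% of cluster peaks and in 20.4% of those outside, so many folds rest on few knockout tags. In the authors' deposited table the fold of a peak over its surrounding 10 kb was 5.78 at the median in clusters and 6.71 outside, and it was under 5 in 33.1% of cluster peaks and in 21.7% of the others. The authors required a local fold of at least 4 and removed 30617 of 174971 putative peaks (17.5%) by that limit. Its part in which runs reached 6 peaks was not tested.

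Around the threshold the clusters changed gradually. The 148 clusters of exactly 6 peaks held a median sum of 141.7 wild-type normalised tags over 29.2 kb, and the 326 runs of 5 peaks, just outside the rule, held 109.9 tags over 25.1 kb. Single peaks of the 6-peak clusters had a median of 21.4 wild-type tags, and those of the 5-peak runs a median of 19.3.

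The largest cluster ran between Hhex and Exoc6 (chr19:37461245-37571977), with 16 peaks over 110.7 kb. Hhex encodes a homeobox repressor of blood and liver cells, and Exoc6 a subunit of the exocyst, which tethers secretory vesicles to the cell membrane. Of its peaks, 4 were nearest to Hhex, between 20.6 and 42.1 kb from that gene, 8 lay between the genes nearest to Exoc6, and 4 lay inside Exoc6. Knockout tags per peak ran from 0.411 to 4.11 and wild-type tags from 5.07 to 43.4, and the sum was 32.1 knockout and 363.4 wild-type tags with a fold of 11.3 (interval 8.25 to 16.0). A single cDC2 peak, with 5.86 knockout and 25.1 wild-type tags, lay inside this span, and it overlapped none of the 16.

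The highest sum belonged to a 68.1 kb cluster over Gm2a, Slc36a3 and Slc36a2 (chr11:55097845-55165979), with 47.7 knockout and 788.0 wild-type normalised tags in 12 peaks and a fold of 16.5 (interval 12.7 to 21.8). Gm2a encodes the lysosomal activator that presents GM2 ganglioside for breakdown, and the Slc36 genes encode amino acid transporters driven by protons. The strongest peak lay 0.672 kb beyond the end of Gm2a, with 10.3 knockout and 175.2 wild-type tags. A pair of peaks between Slc36a3 and Slc36a2 followed, with 5.34 knockout and 124.9 wild-type tags and with 4.52 knockout and 112.5 wild-type tags. The promoter peak of Gm2a printed above is the first of this run. Of the 12 peaks, 2 overlapped a cDC2 peak, and neither was among these 3: the cDC2 peaks held 6.59 knockout and 39.8 wild-type tags, and 0.733 knockout and 22.0 wild-type tags.

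The Chd2 cluster (chr7:73524601-73628339), at a chromatin remodeller of the CHD family, had 13 peaks over 103.7 kb and held 49.7 knockout and 454.7 wild-type tags, which gave a fold of 9.14 (interval 7.02 to 11.9). Its strongest peak, with 10.3 knockout and 101.9 wild-type tags, lay 16.9 kb outside Chd2 and over the promoter window of Chaserr, a long non-coding RNA gene next to Chd2. Only 3 of the 13 peaks lay inside Chd2. The cluster at Ptp4a2, a protein tyrosine phosphatase, and Khdrbs1, an RNA-binding protein, also had 13 peaks (chr4:129761781-129840289), with 48.9 knockout and 411.9 wild-type tags, and held no cDC2 peak. At Supt20, a subunit of the SAGA coactivator, 11 peaks over 78.8 kb held 25.5 knockout and 283.9 wild-type tags, again with no cDC2 peak. At Aff1, a scaffold of transcription elongation, 10 peaks lay all inside the gene and held 32.5 knockout and 380.5 wild-type tags.

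**Figure D2:**
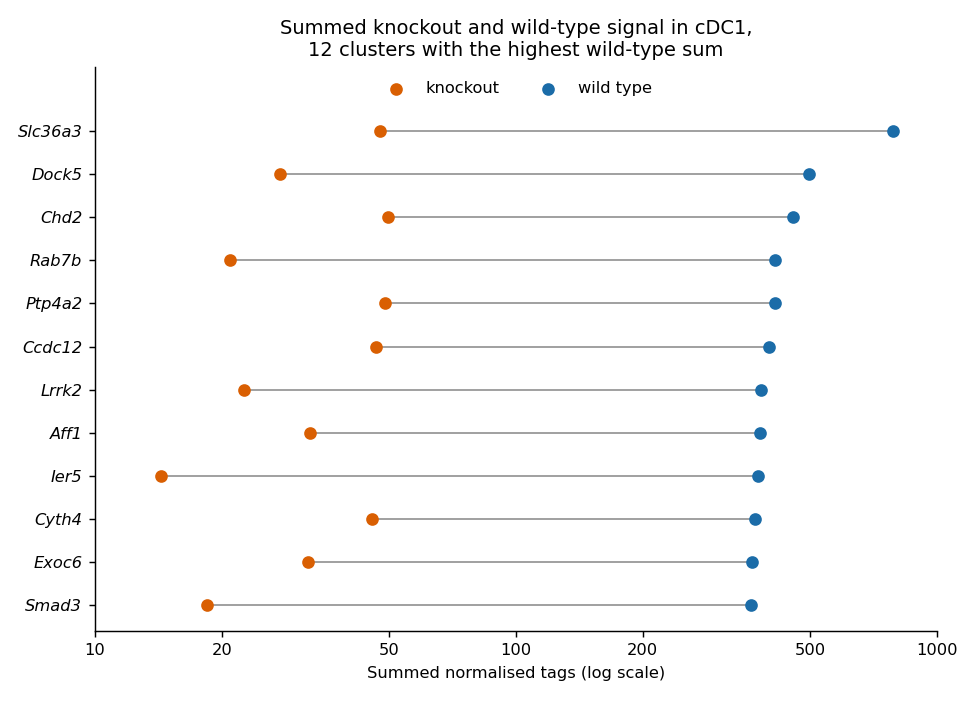
For the 12 clusters with the highest wild-type sum, orange points give the summed knockout and blue points the summed wild-type normalised tags of cDC1 on a log scale, with 1 row per cluster named after the gene nearest to the largest number of its peaks. Knockout sums lie between 14.4 at Ier5 and 49.7 at Chd2, and wild-type sums between 361.9 at Smad3 and 788.0 at Slc36a3; the peaks were listed for this difference.

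On the list of core dendritic cell regulators, 3 genes were given a cluster, and among these Flt3 had most peaks. Flt3 is the receptor for the growth factor that drives dendritic cell development. All 9 peaks of its cluster (chr5:147334225-147379944) lay inside the gene, with 0.411 to 2.47 knockout and 11.6 to 50.9 wild-type normalised tags per peak. Their sum was 12.7 knockout and 209.7 wild-type tags, the fold 16.5 (interval 9.76 to 28.1), and no cDC2 peak lay in the span. At Hlx, a homeobox transcription factor of blood cells, 8 peaks lay 95.2 to 137.7 kb from the gene, with no nearer protein-coding gene. They held 11.1 knockout and 135.9 wild-type tags, a fold of 12.2 (interval 6.97 to 21.8), and again no cDC2 peak. Stat3, the transcription factor that acts downstream of Flt3 and interleukin 10 receptors, had 6 peaks inside the gene, of which the strongest held 11.1 knockout and 83.2 wild-type tags and the next 12.7 knockout and 79.9 wild-type tags. The fold of the Stat3 cluster, 6.57 (interval 4.76 to 9.08), was among the lower ones.

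On the list of AP-1, repressor and immediate early genes, Fos and Bach1 were given clusters of 6 peaks. Nr4a3, an orphan nuclear receptor induced early after stimulation, had 4 of the 9 peaks of a cluster given to Stx17, a syntaxin, with 19.7 knockout and 182.2 wild-type normalised tags in all. Between Tmed10 and Fos, which encodes an AP-1 subunit, 6 peaks held 16.9 knockout and 242.3 wild-type normalised tags, and the strongest, 18.7 kb from Fos, held 8.63 knockout and 96.3 wild-type tags. The cluster held 2 cDC2 peaks, both over cDC1 peaks, with 2.20 knockout and 26.2 wild-type tags and with 3.66 knockout and 22.0 wild-type tags. At Bach1, a repressor regulated by haem, 6 peaks held 12.7 knockout and 89.4 wild-type tags, a sum below the lower quartile of all clusters. Near Ier5, an immediate early gene, 7 peaks lay 25.5 to 67.6 kb away (chr1:155028661-155070932), with 14.4 knockout and 376.5 wild-type tags (fold 26.2, interval 16.0 to 43.1). Their 2 middle peaks, with 4.11 knockout and 84.6 wild-type tags and with 1.23 knockout and 89.2 wild-type tags, both overlapped cDC2 peaks. In cDC2 those sites held 14.7 knockout and 106.8 wild-type tags, the highest wild-type value of any cDC2 peak in a cluster, and 6.59 knockout and 71.2 wild-type tags.

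Smad3 transmits signals of TGF-beta receptors, and its 6 peaks lay inside the gene within 19.1 kb (chr9:63721620-63740728), each with 0.822 to 5.75 knockout and 46.4 to 70.8 wild-type normalised tags. This was the most even of the strong runs, with a fold of 19.6 (interval 12.7 to 30.3), and 1 of its peaks overlapped a cDC2 peak of 6.59 knockout and 36.7 wild-type tags. Zfp710 encodes a zinc finger protein, and its 7 peaks held 18.5 knockout and 316.1 wild-type tags, with 3 cDC2 peaks in the span and 2 of them over cDC1 peaks. Irak2, a kinase-like adaptor downstream of Toll-like receptors, shared a cluster with Vhl, with 16.4 knockout and 132.0 wild-type tags and no cDC2 peak. Dusp4 dephosphorylates MAP kinases, and its 6 peaks lay 41.8 to 76.0 kb from the gene with 11.9 knockout and 115.0 wild-type tags and 2 cDC2 peaks, both over cDC1 peaks. All 10 peaks of the Klf4 cluster, named after a transcription factor of cDC2, lay 231.1 to 291.9 kb from the gene (chr4:55763431-55824439). They held 18.5 knockout and 203.6 wild-type tags, and the 2 strongest, with 0.822 knockout and 42.2 wild-type tags and with 1.64 knockout and 41.9 wild-type tags, overlapped cDC2 peaks.

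Of 25 listed cDC1 markers, 4 were given a cluster: Xcr1, Rab7b, Fzd1 and Hepacam2. Others, such as Clec9a, Cadm1, Wdfy4 and Tlr3, had no cluster peak. By any cluster peak the count was 4 of 25 for cDC1 markers and also 4 of 25 for cDC2 markers. Xcr1 encodes the receptor for the chemokine XCL1 that defines cDC1, and its cluster with Fyco1, an adaptor of autophagosome transport, had 8 peaks over 34.5 kb (chr9:123838601-123873141) with 23.0 knockout and 258.6 wild-type normalised tags. The strongest peak lay 1.43 kb from Xcr1, with 1.23 knockout and 61.3 wild-type tags, and no cDC2 peak overlapped it. The peak inside Xcr1 held 3.29 knockout and 51.2 wild-type tags and overlapped a cDC2 peak of 4.40 knockout and 37.7 wild-type tags. Rab7b encodes a small GTPase of late endosome traffic, and its neighbour Ctse the endosomal protease cathepsin E. Their 6 peaks held 21.0 knockout and 412.3 wild-type tags within 28.3 kb (chr1:131672420-131700749), the highest sum of any 6-peak cluster, with a fold of 19.7 (interval 13.1 to 29.6). The strongest, inside Ctse, held 3.70 knockout and 124.5 wild-type tags and overlapped no cDC2 peak. Inside Rab7b, 2 of 4 peaks overlapped cDC2 peaks, which held 7.33 knockout and 34.6 wild-type tags and 5.13 knockout and 40.8 wild-type tags.

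Fzd1, a Wnt receptor, had 7 peaks with 11.5 knockout and 157.5 wild-type normalised tags, and Hepacam2, a cell adhesion gene, had 6 peaks inside the gene with 12.7 knockout and 210.8 wild-type tags. Neither held a cDC2 peak. The strongest peak at Hepacam2, with 0.822 knockout and 80.8 wild-type tags, stood well above its 5 neighbours, which held at most 32.4 wild-type tags.

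**Figure D3:**
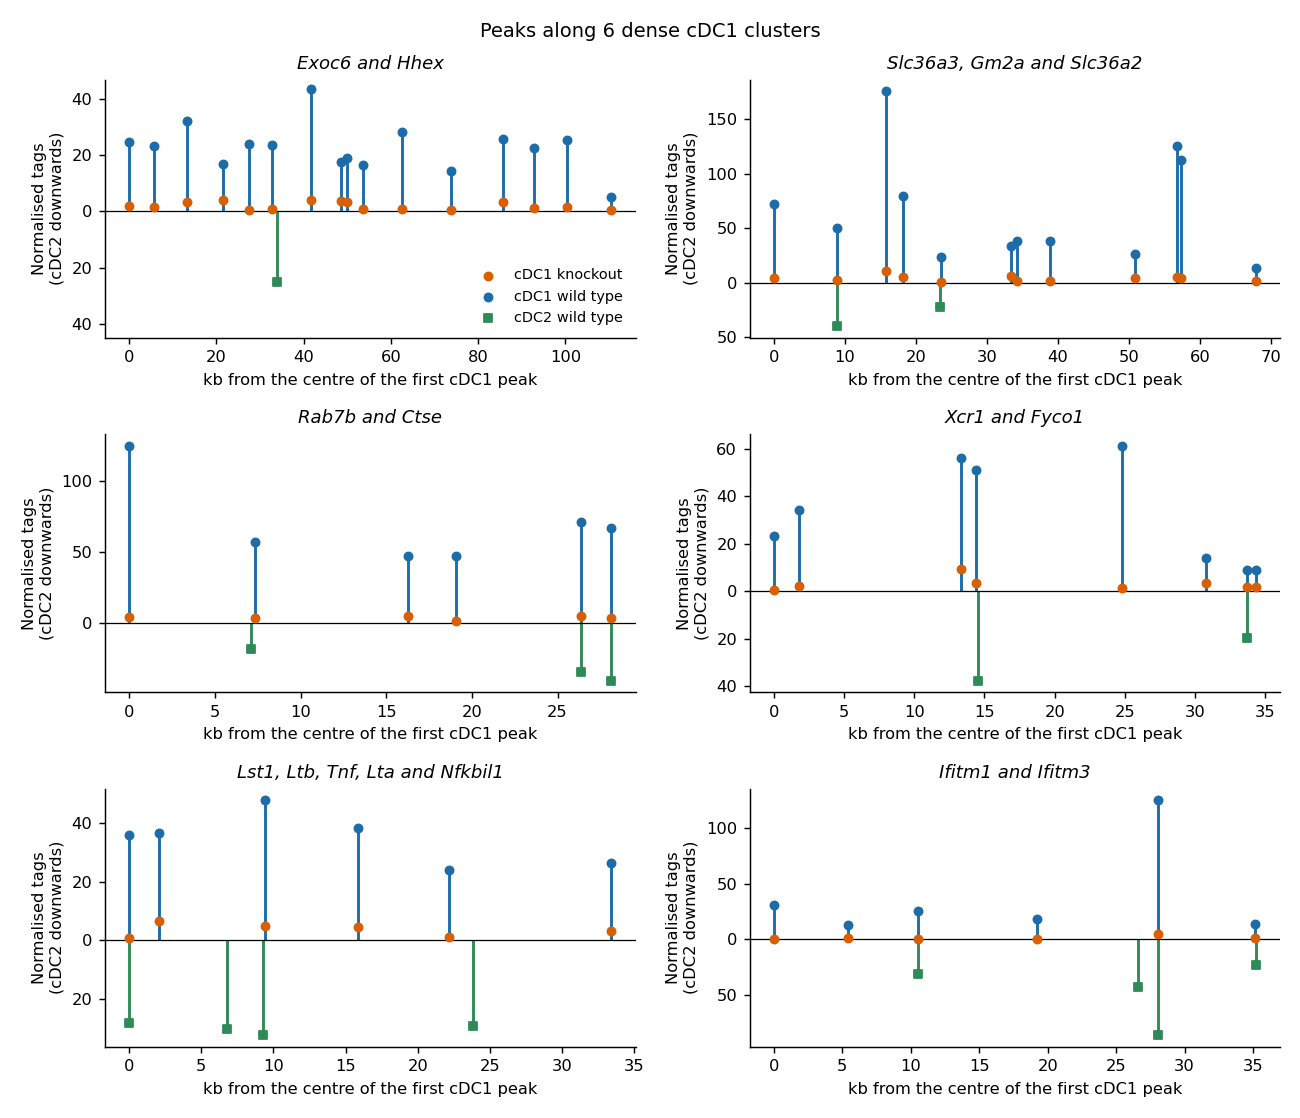
Each panel maps 1 cluster, with the distance in kb from the centre of its first cDC1 peak on the horizontal axis and normalised tags on the vertical axis. Orange points are cDC1 knockout and blue points cDC1 wild-type tags; green squares below the line are cDC2 wild-type tags of the cDC2 peaks. Exoc6 shows 16 peaks of at most 43.4 tags, while in the Ifitm1 and Ifitm3 cluster 1 peak of 124.9 tags stands out and has a cDC2 peak of 85.9 tags at the same place.

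Several clusters lay at receptor genes. Ccr2, a chemokine receptor gene, guides monocytes and some cDC2, and its cluster had 11 peaks over 68.9 kb. They held 14.8 knockout and 198.4 wild-type normalised tags, and the strongest, with 1.64 knockout and 32.6 wild-type tags, was nearest to Ccr3. Reads from such related genes may be shared, so the split of tags between them is uncertain. P2ry14, a receptor for UDP-glucose, shared 11 peaks with Med12l, and all lay inside genes, with 17.7 knockout and 315.4 wild-type tags, a fold of 17.8 (interval 11.5 to 28.0) and no cDC2 peak. At Gpr141 and its relative Gpr141b, orphan receptors, 12 peaks held 18.9 knockout and 242.6 wild-type tags, with no cDC2 peak and with the same doubt about shared reads.

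Receptor genes of lymphocytes and Fc receptor-like genes also stood in clusters. The inhibitory receptor gene Lag3, which also marks plasmacytoid dendritic cells, and its neighbour Cd4 lay in a run of 6 peaks with 14.4 knockout and 221.2 wild-type normalised tags. The peak inside Lag3, with 0.822 knockout and 35.1 wild-type tags, overlapped the only cDC2 peak of that run. On chromosome 1, Atf6, a sensor of protein folding stress, Dusp12 and Fcrlb shared 8 peaks with 17.3 knockout and 288.5 wild-type tags (chr1:170853751-170906483). This cluster held 4 cDC2 peaks, of which 2 overlapped cDC1 peaks. The strongest cDC1 peak, inside Atf6, held 4.11 knockout and 81.1 wild-type tags, and the cDC2 peak over it held 9.52 knockout and 47.1 wild-type tags. A separate cluster of 6 peaks followed at Fcrla, with 7.81 knockout and 172.4 wild-type tags and 1 cDC2 peak.

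The 3 clusters with 4 cDC2 peaks were those of Lst1, Ifitm3 and Atf6, the last described above. The 11 clusters with 3 lay at genes of many kinds, among them Tlr9, Lpp, Chd2, Zfp710, Snx30 and Mid1. A run of 6 peaks over 33.6 kb (chr17:35186180-35219795) passed along Lst1, Ltb, Tnf, Lta and Nfkbil1, of which Tnf, Lta and Ltb encode cytokines of the TNF family. Each of the 6 held 0.822 to 6.58 knockout and 24.0 to 47.9 wild-type normalised tags, and the strongest, inside Ltb, held 4.93 knockout and 47.9 wild-type tags. Of the 4 cDC2 peaks in the run, 2 overlapped cDC1 peaks, at Lst1 and at Ltb, with 5.86 knockout and 28.3 wild-type tags and with 8.06 knockout and 32.5 wild-type tags. The Tnf promoter peak printed above overlapped none.

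At Ifitm1 and Ifitm3, which encode membrane proteins that restrict virus entry, 6 peaks held 9.86 knockout and 226.4 wild-type normalised tags (chr7:140971348-141006693), with a fold of 23.0 (interval 13.1 to 44.6). The peak 10.1 kb from Ifitm3 held 4.93 knockout and 124.9 wild-type tags, or 55.2% of the wild-type sum, and the next held only 31.0 wild-type tags. This dominant site overlapped a cDC2 peak of 11.7 knockout and 85.9 wild-type tags, and 2 weaker sites were shared as well. The Ifitm genes resemble each other, so tags near them may be split between copies.

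Tlr9 senses unmethylated DNA in endosomes, and its cluster had 6 peaks across 5 genes, Wdr82, Ppm1m, Twf2, Tlr9 and Alas1 (chr9:106193215-106230455), with 24.2 knockout and 291.9 wild-type normalised tags. The 2 strong sites were not at Tlr9: the one near Ppm1m, a protein phosphatase, held 4.93 knockout and 111.6 wild-type tags, and the one near Alas1, the first enzyme of haem synthesis, held 7.81 knockout and 87.5 wild-type tags. All 3 cDC2 peaks of the run overlapped cDC1 peaks. They held 9.52 knockout and 57.6 wild-type tags near Ppm1m, 2.93 knockout and 22.0 wild-type tags inside Tlr9, and 16.8 knockout and 85.9 wild-type tags near Alas1.

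Dock5 activates the small GTPase Rac, and 9 peaks inside it (chr14:67857866-67906192) held 27.5 knockout and 496.3 wild-type normalised tags, the second highest sum, with a fold of 18.0 (interval 12.7 to 25.7). Neighbouring peaks in its middle held 2.88 knockout and 117.3 wild-type tags and 3.29 knockout and 104.6 wild-type tags, and the second of these overlapped the only cDC2 peak of the run. Rac2, the Rac form of blood cells, and Cyth4, which activates Arf GTPases, shared 9 peaks with 45.6 knockout and 370.0 wild-type tags and no cDC2 peak. Lpp, a LIM protein of cell contacts, had 11 peaks inside the gene with 22.2 knockout and 358.5 wild-type tags. All 3 of its cDC2 peaks overlapped cDC1 peaks, among them the 2 strongest, with 2.88 knockout and 82.9 wild-type tags and with 2.88 knockout and 74.6 wild-type tags.

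Lrrk2, a kinase that acts on Rab GTPases, had 12 peaks over 65.2 kb (chr15:91615138-91680347), with 22.6 knockout and 382.3 wild-type normalised tags and 1 cDC2 peak. The gene start peak shown above was weaker than a site 28.8 kb before the gene, which held 1.64 knockout and 76.8 wild-type tags. At Ctsh, the lysosomal protease cathepsin H, and Rasgrf1, an activator of Ras, 12 peaks held 25.1 knockout and 216.3 wild-type tags. The Ccdc12 and Nbeal2 cluster had 7 peaks with 46.4 knockout and 399.9 wild-type tags. Its strongest peak, inside Ccdc12, held 9.45 knockout and 137.0 wild-type tags, and no cDC2 peak lay in the run. The densest run was that of Snx10, a sorting nexin of endosomes, with 6 peaks in 14.0 kb, or 4.29 peaks per 10 kb, and 15.6 knockout and 151.7 wild-type tags. Itgal, the alpha chain of the integrin LFA-1, followed with 6 peaks in 15.9 kb and 19.7 knockout and 144.0 wild-type tags, and held no cDC2 peak.

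Across all genes, 268 of 21900 protein-coding genes were given a cluster, and Atp2b1, a calcium pump, was given 2. A cluster was given to the gene nearest to more of its peaks than any other gene, with ties going to the gene of the stronger peak, which gave a cluster to 1.22% of genes; 1.99% had at least 1 cluster peak. Among 25 core dendritic cell regulators, Flt3, Hlx and Stat3 were given a cluster, and among 25 AP-1, repressor and immediate early genes, Fos and Bach1. Of 25 NF-kB and signalling inhibitor genes, Irak2 and Dusp4 were given one, and of 25 cDC1 markers Xcr1, Rab7b, Fzd1 and Hepacam2. Of 25 cDC2 markers, Klf4 and Ccr2 were given one, while Ltb and Cd4 had a peak of a cluster given to another gene. The same held for 4 of 29 cytokine and costimulation genes, Tnf, Il1b, Cxcl9 and Cxcl16, none of which was given a cluster. Ticam1, an adaptor of Toll-like receptors, likewise had a peak of another gene's cluster. None of 25 antigen processing and presentation genes had a cluster peak, although 19 had a cDC1 peak, and with runs of at least 4 peaks 5 of them were given a cluster. Genes with 6 or more cDC1 peaks numbered 14 among the core regulators, 14 on the AP-1 list and 8 on the NF-kB list. They numbered 8 among cDC1 markers, 5 among cDC2 markers, 7 among cytokine and costimulation genes and 1 among antigen processing and presentation genes. Of all genes with that many cDC1 peaks, 14.8% were given a cluster. Xcr1 and Rab7b were given one with only 5 and 4 peaks of their own, so they are not among these 8 cDC1 markers. The 14.8% therefore cannot be set against all 4 cDC1 markers with a cluster. The rule used the cDC1 contrast, so these list counts are a description.

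Among markers of other cells, Lag3 was given a cluster of 16 plasmacytoid markers, Fcrla of 17 B cell markers and Ccr2 of 22 monocyte, macrophage and neutrophil markers, while Tlr9 was given one of 30 interferon and Toll-like receptor genes. None of 22 T and NK cell markers, 11 erythroid markers or 25 neuron and liver genes had a cluster peak. Over all protein-coding genes the share with a cluster peak was only 1.99%. Genes with 6 or more cDC1 peaks numbered 0, 1 and 0 in these lists. A gene with fewer can also have a cluster peak, as Fcrla does with 3 cDC1 peaks. Whether the absence of cluster peaks sets the T and NK, erythroid, and neuron and liver lists apart from other genes was not tested. The part of other cell types in the clusters above was not tested.

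Many peaks near a gene did not amount to a cluster. Of 1316 protein-coding genes with 6 or more cDC1 peaks, 195, or 14.8%, were given a cluster. Foxp1 had 45 peaks, and the longest run that held any of them had 4. Run lengths here and below also count peaks of neighbouring genes. Id2, which encodes a factor required for cDC1, had 32 peaks with a longest run of 4, Bach2 had 26 with 5, Prdm1 24 with 4, Bcl6 20 with 5 and Tnfaip3 19 with 5. Zfp366 itself had 10 peaks with a longest run of 3, Irf8 had 6 with 5, Batf3 5 with 5, and Il12b 14 with 3, so none of these 4 had a cluster. Xcr1 and Rab7b had a cluster with only 5 and 4 peaks of their own, because the run included peaks of the neighbouring gene. Genes given a cluster had a median length of 52.0 kb, those with 6 or more peaks 99.1 kb, and all protein-coding genes 17.1 kb.

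The cDC2 list allowed the clusters to be set against data the rule did not use. Of the 1883 cluster peaks, 158, or 8.39% (interval 7.18% to 9.74%), overlapped a cDC2 peak by at least 1 bp, against 1609 of 29590 peaks outside, or 5.44% (interval 5.18% to 5.70%). Over all cDC1 peaks the share was 5.61%. Wild-type tags per peak also differed between cluster peaks and the others, as given above, and shares were therefore taken within 10 equal groups of all cDC1 peaks by wild-type tags. Peaks outside clusters, weighted to the spread of cluster peaks over the 10 groups, overlapped in 7.28%. In the group with most tags, 24.3% of 288 cluster peaks (interval 19.5% to 29.7%) and 18.8% of 2860 outside peaks (interval 17.4% to 20.3%) were shared, and these intervals overlap. In the plot by signal the intervals of cluster and outside peaks overlap in all 10 groups, which does not show that the shares are equal. The part of peak signal in the difference was not tested.

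**Figure D4:**
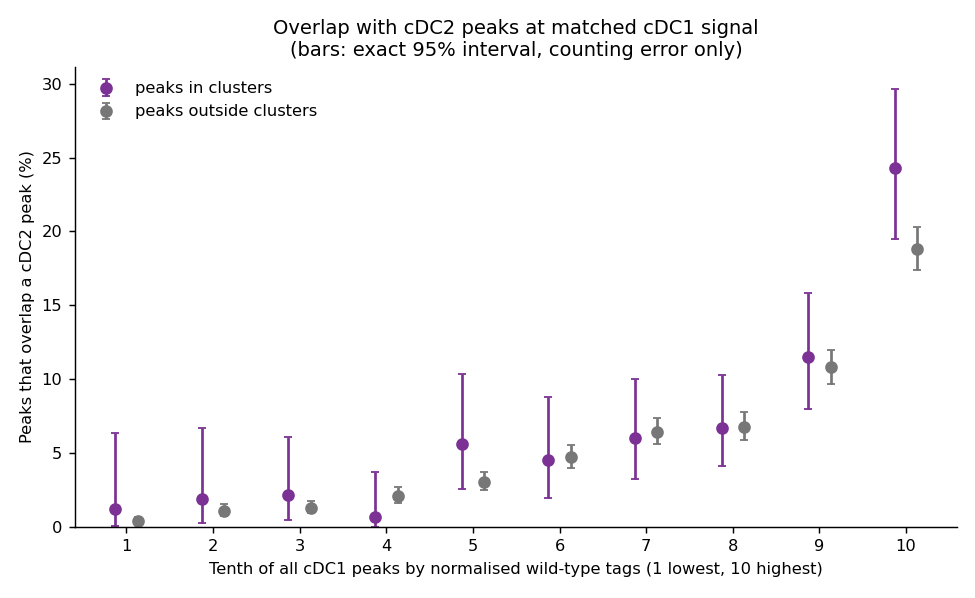
The share of cDC1 peaks that overlap a cDC2 peak, in percent, is plotted for 10 equal groups of all cDC1 peaks by normalised wild-type tags (1 lowest, 10 highest), with exact 95% intervals; peaks in clusters are purple and stand left of the peaks outside, in grey. In group 10 the shares are 24.3% in clusters and 18.8% outside, and in group 9 they are 11.5% in clusters and 10.8% outside.

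Seen from cDC2, 207 of 2776 peaks (7.46%, interval 6.51% to 8.50%) lay within a cDC1 cluster. Of these 207, 157 overlapped a cDC1 peak, or 75.8% (interval 69.4% to 81.5%), against 1610 of the 2569 cDC2 peaks elsewhere, or 62.7% (interval 60.8% to 64.5%); over all cDC2 peaks the share was 63.7%. A cDC2 peak inside a cluster has several cDC1 peaks around it, and the part of that in this difference was not tested. The other 50 cDC2 peaks overlapped no cDC1 peak, but some lay directly beside one. In the Rab7b cluster a cDC2 peak ended at base 131679741 and a cDC1 peak began at base 131679765. Whether such neighbours are separate sites was not tested. The cDC2 peaks in clusters held a median of 3.66 knockout and 26.2 wild-type normalised tags, and those elsewhere 3.66 knockout and 24.1 wild-type tags. In the authors' deposited table the cDC2 fold, wild type over knockout, had a median of 7.15 in clusters and 7.43 elsewhere.

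Clusters differed among themselves in this respect. No cDC2 peak lay in 132 of the 269 clusters, 1 lay in 84, 2 in 39, 3 in 11 and 4 in 3, the last being those of Atf6, Ifitm3 and Lst1. The cDC2 list itself, with fewer tags behind it and no peak below 12.6 normalised tags, gave 34 runs of 3 or more peaks at the same distance, 2 of 4 or more and none of 6. Whether a cluster without cDC2 peaks is unbound in cDC2 cannot be told at this depth.

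Cluster peaks lay less often at the ends of genes than other peaks. Within 1 kb of a gene end stood 265 of 1883 cluster peaks, or 14.1% (interval 12.53% to 15.73%), against 21.2% of the 29579 peaks outside that lay on a sequence with genes in the table (interval 20.7% to 21.7%). Peaks of 1 cluster are neighbours by the rule, so their positions are not independent, which the intervals of this paragraph ignore. The part of the spacing rule in the difference was not tested. Over a promoter window lay 8.87% of cluster peaks (interval 7.62% to 10.2%) and 14.0% of the others (interval 13.6% to 14.4%). The share inside protein-coding genes was close, 55.7% (interval 53.4% to 58.0%) in clusters and 56.0% outside, though it was 48.3% in clusters and 54.5% outside when only peaks of a fold of at least 8 were chained, and 51.6% and 56.4% with the higher-scoring 50% of peaks. Close too was the share over 10 kb from any gene, 24.7% and 24.6%. In 146 clusters every peak was assigned to 1 gene, in 71 every peak lay inside a gene, and in 42 no peak did. In 33 clusters the peaks belonged to 3 or more genes. The gene table gives neither strand nor exons, so introns and exons were not told apart.

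**Figure D5:**
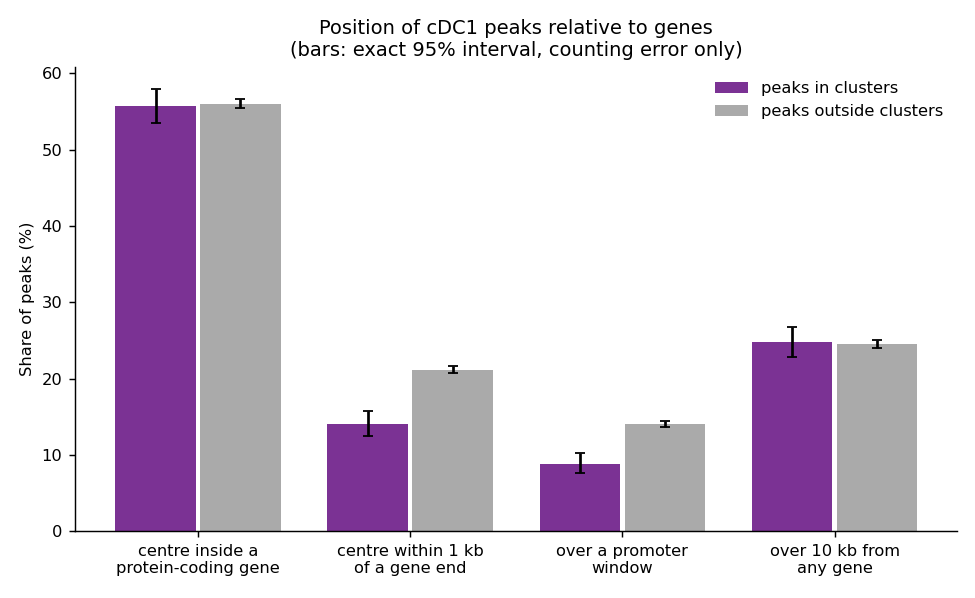
Bars give the share of cDC1 peaks in each position class in percent, from 0, with exact 95% intervals; peaks in clusters are purple and stand left of peaks outside clusters, in grey. Within 1 kb of a gene end the shares are 14.1% and 21.2%, and over promoter windows 8.87% and 14.0%, while the classes inside genes and far from genes are close.

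By chromosome, the share of peaks in clusters was highest on chromosome 18, with 99 of 981 or 10.1% (interval 8.28% to 12.1%), and was 8.41% on chromosome 12 and 8.11% on chromosome 9. It was lowest on chromosome 15, with 3.86%, and 4.09% on chromosome 2. No cluster lay on chromosome Y.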

How the data were processed

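HOMER and the builds GRCm38 and mm10 are named per the submitters' processing notes, and an aligner was not given in the sources used here. Per the file headers, the authors called peaks with HOMER findPeaks on 1 pooled wild-type set of tags with 1 pooled knockout set as control, at a false discovery rate of 0.001, a fold over knockout and over the surrounding 10 kb of at least 4, and a Poisson p-value of at most 0.0001. The deposited signal is wild-type tags under 191 bp scaled to 10000000. The deposited score, in wild-type tags, was used to rank peaks within a list, the deposited fold is a ratio of wild type over knockout, and the deposited p-value and focus ratio, a fraction, were not used further. Knockout depth was worked out from the scaling between columns. The headers do not list which libraries entered a set.

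Peaks were sorted and chained with Python 3.11.15, pandas 2.3.3 and scipy 1.17.1, and the chaining was tested on simulated lists. Neighbouring centres at most 12.5 kb apart were chained. Each peak went to the RefSeq (GRCm38.p6) protein-coding gene around its centre, or else to that with the nearest end. Of 323 list entries in 14 lists, 322 matched. Named clusters are the 12 with most peaks, the 12 with the highest sums, the 8 with most cDC2 peaks, the 4 longest, the 4 densest and up to 4 per list; those of Zfp366, Irf8 and Il12b would have been named too. Not every one of these 42 is described. The clusters, lists and rules were chosen with earlier results of these data known. No test between genotypes was made, because the tables hold pooled tags. Columns of other series were not found (0 columns left unused for that reason). The precision of each value is set by these tag totals, and intervals cover counting error. Alternatives for distance, size, score, fold, overlap and gene windows were tried. On the labels, cDC2 knockout replicate 2 is mouse pool 3.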

Additional observations from a re-analysis of the deposited data

How the results depend on the processing

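The number of clusters follows the rule closely. Against 269 clusters of 1883 peaks, a distance of 5 kb gave 2 clusters of 12 peaks at 2 genes, with no cDC2 peak inside (0), and 25 kb gave 1113 clusters of 9319 peaks at 1061 genes with 932 cDC2 peaks. Runs of at least 4 peaks gave 1262 clusters of 6181 peaks at 1160 genes with 578 cDC2 peaks, and runs of at least 8 gave 63 clusters of 589 peaks at 63 genes with 65. The higher-scoring 50% of cDC1 peaks gave 70 clusters of 471 peaks at 70 genes with 72 cDC2 peaks, and peaks of a fold of at least 8 gave 59 clusters of 389 peaks. Of the 269 clusters, 2 were overlapped by a cluster at 5 kb, 63 at a size of 8, 70 with the higher-scoring peaks and 59 with the fold of 8. Counting every gene with a cluster peak gave 436 genes in place of 268. The list counts moved as well: runs of at least 4 peaks gave a cluster to 12 core regulators, 11 cDC1 markers, 7 cytokine and costimulation genes and 5 antigen processing genes, and runs of at least 8 to 2, 1, 0 and 0 of them. When a cluster was given to the gene of its strongest peak, Tlr9, Ccr2 and Rab7b had none and Ltb had 1.

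The share of cluster peaks that overlap a cDC2 peak, 8.39%, was 0% in the 12 peaks at 5 kb. It was 11.5% in clusters and 9.57% outside with the higher-scoring 50% of cDC1 peaks, 6.43% and 4.22% when peaks had to share 50% of the shorter one, 11.5% and 7.14% with centres within 1 kb, and 5.26% and 3.31% with the higher-scoring 50% of cDC2 peaks. For peaks of a fold of at least 8 it was 12.6% in clusters and 6.86% outside. The share outside was 4.87% at 25 kb and 5.13% for runs of at least 4. Inside genes lay 58.3% of cluster peaks and 56.0% of the others at 5 kb, 52.8% and 56.1% at a size of 8, 51.6% and 56.4% with the higher-scoring cDC1 peaks, and 48.3% and 54.5% with a fold of at least 8, against 55.7% in clusters by the rule used. Near gene ends lay 25% of cluster peaks at 5 kb, 15.9% at 25 kb, 15.9% with the higher-scoring peaks and 20.4% with a window of 2.5 kb. By the rule used, with a window of 1 kb, it was 14.1%, and a wider window can only raise the share. Shares outside clusters are not given for these settings, so whether the difference at gene ends holds under them cannot be told. Over 10 kb from genes lay 0% at 5 kb, 27.5% at a size of 8 and 27.0% with the higher-scoring peaks, against 24.7%. The cause of these shifts was not tested, beyond the fewer or more peaks that each setting leaves.

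No paired analysis was possible because the tables hold the pooled tags of each genotype, and for the same reason leaving out libraries was not run. The cDC2 list has fewer tags behind it than the cDC1 list and holds no peak below 12.6 normalised tags.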

Other observations

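The clusters below were chosen after their values were seen. Nlrp3, the sensor of an inflammasome, had 6 peaks with 17.3 knockout and 252.6 wild-type normalised tags, and 3 cDC2 peaks lay in the run. Its promoter site, printed in the report, held 4.52 knockout and 103.8 wild-type tags in cDC1, and 11.7 knockout and 91.1 wild-type tags in cDC2. Upstream, 14.6 kb from the gene, a cDC1 peak with 4.52 knockout and 61.2 wild-type tags met a cDC2 peak with 13.2 knockout and 80.6 wild-type tags. The Il1a and Il1b cluster, at the genes of interleukin 1, had 8 peaks, with 19.3 knockout and 212.0 wild-type tags, and its strongest peak held 47.9% of the wild-type sum.

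Several further runs covered families of related genes, and how reads were shared between such copies is uncertain. Ccl2 and Ccl7, chemokine genes for monocytes, had 9 peaks with 16.9 knockout and 254.9 wild-type tags, and both cDC2 peaks of that run overlapped cDC1 peaks. At the Gimap genes, GTPases of lymphocytes, 7 peaks held 9.04 knockout and 144.6 wild-type tags. The metallothionein genes Mt1, Mt2 and Mt3 shared 8 peaks with 18.1 knockout and 136.0 wild-type tags and no cDC2 peak. Slamf7 with Ly9, and Slamf6 with Cd84, immune receptors of 1 family, formed separate clusters of 7 peaks each, with 23.0 knockout and 255.3 wild-type tags and with 14.0 knockout and 245.8 wild-type tags.

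Mid1, a ubiquitin ligase gene on chromosome X, had 10 peaks with 9.86 knockout and 156.1 wild-type tags. Its span also held 3 cDC2 peaks of 18.8, 24.1 and 24.1 wild-type tags, and none of them overlapped a cDC1 peak, unlike the 75.8% of all cDC2 peaks in clusters. Inside 9 clusters lay 12 of the 1005 miRNA genes in the RefSeq table, and no matching share was taken for other genes, so the count is a description. Among the 12 were Mir25, Mir93 and Mir106b in the Zfp113 cluster, and Mir146 in the Pttg1 cluster. Mir146 lay furthest from a peak of all 12, at 5.14 kb from one of 11.7 tags. Mir7655 in the Mllt10 cluster lay nearest to a peak, at 0.0655 kb.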
